A study of Mus musculus with 9 samples.

Results

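Messenger RNA for 33 genes of the hypoxia response and of glycolysis was compared between beta-catenin, ICAT and control cells of the mouse pancreatic cancer line 170#3. The members were listed by name: 13 glycolytic enzymes and 20 other targets or components of the hypoxia-inducible factor (HIF) pathway. Each was read from the brightest probe set (a group of array probes reporting 1 value) annotated to that gene alone, by its mean over the 9 arrays. Of the 33 genes, 30 had such a probe set, among 18193 genes so represented on the array. The enzymes Gpi1, Gapdh and Eno1 had none and were not analysed here. A gene was tested where its log2 value reached 5 on at least 3 arrays, which left 29 members (10 enzymes and 19 others) among 15235 genes tested.

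All 9 samples were total RNA from monolayer cultures in DMEM with 10% FBS, from 1 line of mixed C57BL6 x FVB x 129Sv background. The cells had been stably transfected with beta-catenin (3 arrays), with ICAT (3 arrays) or with the control (3 arrays). Beta-catenin is the transcriptional co-activator of Wnt signalling, and ICAT, the product of Ctnnbip1, is named as an inhibitor of beta-catenin and TCF because it keeps those partners from pairing. The labels call the replicates biological but do not say whether a group came from 1 transfected clone or from several, so the p-values measure the spread between these samples. The array medians lay between 6.21 and 6.29 on the log2 scale.

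HIF is a pair of a labile alpha subunit (HIF-1 alpha, encoded by Hif1a, or HIF-2 alpha, encoded by Epas1) and a stable beta subunit encoded by Arnt. When oxygen is plentiful, prolyl hydroxylases such as those encoded by Egln1 and Egln3 mark the alpha subunit, and the VHL protein directs its breakdown. In low oxygen the pair binds short DNA sites with an RCGTG core and switches on glucose uptake, glycolysis, vessel growth and the mitochondrial adjustments that spare oxygen; much of this programme is also active in tumour cells. No sample was labelled as grown in low oxygen, and the arrays do not measure the oxygen level of the cultures.

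Most members of the programme were lower in beta-catenin than in ICAT cells. Of the 29 members tested, 25 were lower and 0 higher in beta-catenin than in ICAT cells (86.2%, against 17.9% of all genes tested that were lower and 22.5% that were higher). The median log2 difference of the members was -0.98, against -0.01 over all genes tested. Against control cells, 15 members were lower (51.7%, against 15.4% of all genes tested) and 0 higher (19.6% of all genes) in beta-catenin cells, whereas 20 were higher (69.0%, against 18.7%) and 2 lower (18.5% of all genes) in ICAT cells. In RNA from whole cultures, fewer expressing cells and less RNA per cell cannot be told apart. The largest differences between beta-catenin and ICAT cells were in Aldoc and Eno2, brain-type isoforms of aldolase and enolase (5.65-fold and 4.57-fold lower in beta-catenin cells), in the glucose transporter gene Slc2a1 (3.94-fold) and in the vasodilator peptide gene Adm (3.79-fold).

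**Figure D1:**
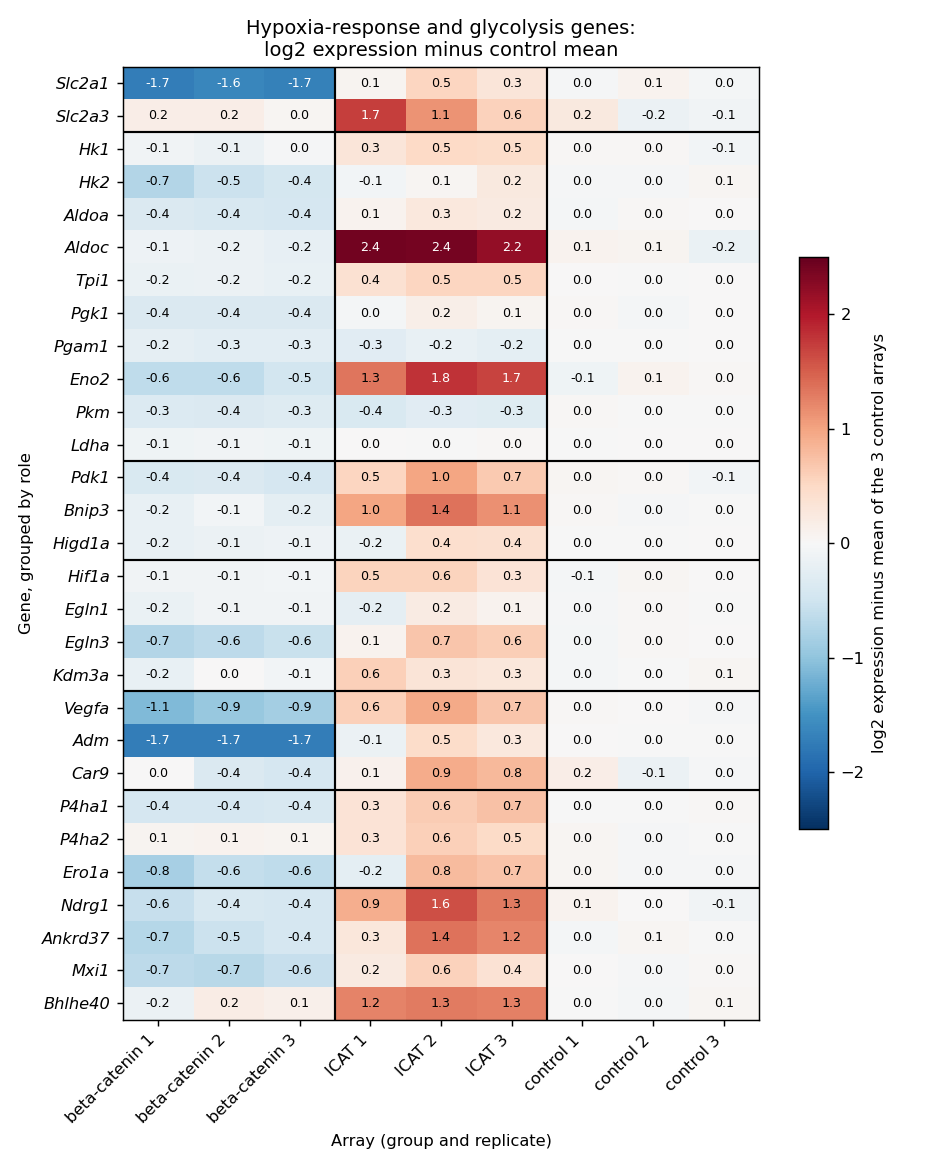
The heat map gives, for each of the 29 members tested (rows, grouped by role) and each of the 9 arrays (columns), the log2 expression minus the mean of the 3 control arrays, from blue (lower) to red (higher). The beta-catenin columns are mostly blue, down to -1.73 on average for Adm, and the ICAT columns mostly red, up to 2.33 for Aldoc.

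The promoters of these 4 genes are shown because the genes had the largest called differences between beta-catenin and ICAT cells. Each line gives the 250 bases before the gene's start, 5′ to 3′ on the gene's strand, from RefSeq on build GRCm38.p6, with capitals marking ACGTG or GCGTG, the letters of the HIF core, or their reverse complements CACGT and CACGC. The regions are chr11:78322823-78323072 (plus strand) for Aldoc, chr6:124769674-124769923 (minus strand) for Eno2, chr4:119108495-119108744 (plus strand) for Slc2a1 and chr7:110627407-110627656 (plus strand) for Adm.
Aldoc: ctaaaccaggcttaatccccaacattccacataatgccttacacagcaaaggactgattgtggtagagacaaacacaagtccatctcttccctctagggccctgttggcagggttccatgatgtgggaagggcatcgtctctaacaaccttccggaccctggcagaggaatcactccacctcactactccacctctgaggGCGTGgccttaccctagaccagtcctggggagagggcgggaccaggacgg
Eno2: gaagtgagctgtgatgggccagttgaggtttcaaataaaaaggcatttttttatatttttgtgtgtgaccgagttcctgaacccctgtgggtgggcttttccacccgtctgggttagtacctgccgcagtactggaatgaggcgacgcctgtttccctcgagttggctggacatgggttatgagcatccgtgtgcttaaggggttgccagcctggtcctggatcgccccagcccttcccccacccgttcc
Slc2a1: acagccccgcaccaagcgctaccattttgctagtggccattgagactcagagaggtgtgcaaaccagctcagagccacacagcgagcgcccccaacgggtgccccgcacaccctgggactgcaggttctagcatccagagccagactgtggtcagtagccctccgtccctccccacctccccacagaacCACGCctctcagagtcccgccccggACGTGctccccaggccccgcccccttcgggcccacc
Adm: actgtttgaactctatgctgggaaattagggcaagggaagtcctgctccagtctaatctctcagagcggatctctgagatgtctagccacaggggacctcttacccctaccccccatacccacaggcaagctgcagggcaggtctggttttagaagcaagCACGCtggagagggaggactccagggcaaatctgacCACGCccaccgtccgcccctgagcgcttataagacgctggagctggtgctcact

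In these windows Slc2a1 held 2 matches, starting 61 and 36 bases before the start, and Adm held 2, at 90 and 54 bases before it. Aldoc held 1, at 50 bases before the start, and 3 matches in its window of 300 bases that runs on past the start. Eno2, the member with the second largest difference, held none in the letters searched. A window from 250 bases before to 50 after the start was given for 30 of the 33 members, without Slc2a3, Ndrg1 and Bhlhe40, and 22 of these 30 windows held at least 1 match on either strand. Among the members tested the share was 73.1% (19 of 26 windows), with a median GC content of 65.2%, and over all genes tested it was 58.7% (7150 of 12185 windows), with a median GC content of 60%. ACGTG and CACGT can overlap each other in 1 longer run, and the sets differ in GC content, so these matches describe the letters only.

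Glucose enters the cell through the transporters encoded by Slc2a1 (GLUT1) and Slc2a3 (GLUT3), and Slc16a3 encodes a transporter that exports lactate. Slc2a1 had log2 values of 8.91, 8.996 and 8.95 in beta-catenin cells, 10.69, 11.16 and 10.93 in ICAT cells, and 10.59, 10.70 and 10.58 in control cells. Every beta-catenin array lay below every other array, while ICAT and control arrays overlapped by 1 array each. Slc2a1 was 3.20-fold lower in beta-catenin than in control cells (log2 difference -1.68, SE 0.10, limma adjusted p = 2.49e-07) and 3.94-fold lower than in ICAT cells (adjusted p = 1.08e-07). Its 1.23-fold higher level in ICAT than in control cells (adjusted p = 0.0363) was not called in 7 of the 19 alternative settings, among them leaving out ICAT replicate 2 or 3 or any 1 control array (adjusted p up to 0.123). Slc2a3 had values of 6.02, 6.02 and 5.90 in beta-catenin cells, 7.58, 6.97 and 6.43 in ICAT cells, and 6.09, 5.70 and 5.75 in control cells. Here the ICAT arrays stood above all others and spread widely (SD 0.57), and the remaining groups overlapped. Slc2a3 was 2.21-fold higher in ICAT than in control cells (adjusted p = 0.00171) and 2.02-fold lower in beta-catenin than in ICAT cells (adjusted p = 0.00324). The other Slc2a3 probe set past the filter, a dim one, showed log2 differences of 0.14 for ICAT against control (adjusted p = 0.623) and -0.11 for beta-catenin against ICAT (adjusted p = 0.669), neither called. Slc16a3 passed 5 only on control replicate 1 (5.02) and was not tested.

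Of the 10 glycolytic enzymes tested, 6 were lower in beta-catenin than in control cells (Hk2, Aldoa, Pgk1, Pgam1, Eno2 and Pkm), and 7 were lower in beta-catenin than in ICAT cells. In ICAT cells 5 enzymes were higher than in control cells (Hk1, Aldoa, Aldoc, Tpi1 and Eno2) and 2 were lower (Pgam1 and Pkm). Of all genes tested, 15.4% were lower in beta-catenin than in control cells, 17.9% lower in beta-catenin than in ICAT cells, and 18.7% higher and 18.5% lower in ICAT than in control cells, so the 2 of 10 lower lie near that share. The median log2 differences of the 10 were -0.29 for beta-catenin against control, 0.13 for ICAT against control and -0.55 for beta-catenin against ICAT, against -0.03, -0.01 and -0.01 over all genes tested. The comparisons with control share the 3 control arrays.

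Aldoc encodes aldolase C, which splits fructose bisphosphate. Its values were 6.98, 6.95 and 6.89 in beta-catenin cells, 9.51, 9.49 and 9.31 in ICAT cells, and 7.19, 7.18 and 6.95 in control cells. The 3 ICAT arrays lay far above the rest, and beta-catenin and control arrays met at their edges. Aldoc was 5.04-fold higher in ICAT than in control cells (log2 difference 2.33, SE 0.08, adjusted p = 2.13e-08), the largest rise among the members. Between beta-catenin and control cells its difference of -0.17 (95% interval -0.35 to 0.02) was not called. Aldoa, the main aldolase of most tissues, measured 12.73, 12.68 and 12.67 in beta-catenin cells, 13.18, 13.35 and 13.31 in ICAT cells, and 13.05, 13.13 and 13.10 in control cells. Its 3 groups did not overlap: ICAT was the highest and beta-catenin the lowest. It was 1.32-fold lower in beta-catenin than in control cells (adjusted p = 0.000519), and the call of 1.14-fold higher in ICAT than in control cells (adjusted p = 0.0374) did not hold in 10 of the 19 alternative settings, including the omission of any control array, of ICAT replicate 2 or 3 and of beta-catenin replicate 2 or 3 (adjusted p up to 0.131).

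Eno2 encodes gamma enolase. It had values of 5.76, 5.75 and 5.94 in beta-catenin cells, 7.73, 8.20 and 8.09 in ICAT cells, and 6.28, 6.48 and 6.41 in control cells. None of the groups overlapped, and ICAT was the highest. Eno2 was 1.49-fold lower in beta-catenin than in control cells (log2 difference -0.58, SE 0.11, adjusted p = 0.00186) and 3.06-fold higher in ICAT than in control cells (log2 difference 1.62, adjusted p = 1.77e-06). Hexokinases trap glucose inside the cell as its phosphate. Hk2 measured 8.98, 9.19 and 9.28 in beta-catenin cells, 9.65, 9.77 and 9.96 in ICAT cells, and 9.69, 9.68 and 9.76 in control cells. Beta-catenin arrays were below all others, and ICAT and control arrays overlapped. The fall against control was 1.48-fold (adjusted p = 0.000589), whereas Hk1 was 1.34-fold higher in ICAT than in control cells (adjusted p = 0.000544) and not called in beta-catenin cells (log2 difference -0.09, 95% interval -0.24 to 0.06).

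Tpi1, which interconverts the triose phosphates, measured 12.56, 12.58 and 12.55 in beta-catenin cells, 13.11, 13.27 and 13.28 in ICAT cells, and 12.74, 12.72 and 12.73 in control cells. These groups were fully apart. Its 1.40-fold rise in ICAT cells was called (adjusted p = 0.000116), and its log2 difference of -0.17 in beta-catenin cells was not (adjusted p = 0.0577), although 8 of the 19 alternative settings called it, among them leaving out ICAT replicate 1 or 3. Pgk1, the first step of glycolysis that yields ATP, was 1.28-fold lower in beta-catenin than in control cells (adjusted p = 0.00105), and its ICAT arrays overlapped those of control.

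Pkm and Pgam1 were lower in both transfected groups than in control cells. Pkm, encoding the pyruvate kinase of most tissues, measured 13.02, 13.004 and 13.04 in beta-catenin cells, 12.98, 13.08 and 13.06 in ICAT cells, and 13.39, 13.35 and 13.35 in control cells. Both transfected groups lay below control and overlapped each other. Pkm was 1.27-fold lower in beta-catenin cells (adjusted p = 0.00068) and 1.25-fold lower in ICAT cells (adjusted p = 0.00101), each against control, with a difference between beta-catenin and ICAT of -0.02 (95% interval -0.14 to 0.11). Pgam1, the phosphoglycerate mutase gene, gave 12.71, 12.67 and 12.67 in beta-catenin cells, 12.64, 12.73 and 12.69 in ICAT cells, and 12.91, 12.93 and 12.94 in control cells. The groups were arranged as for Pkm. Pgam1 was 1.19-fold lower in beta-catenin cells (adjusted p = 0.00534) and 1.18-fold lower in ICAT cells (adjusted p = 0.00578) than in control cells, and differed by -0.01 between beta-catenin and ICAT cells (95% interval -0.13 to 0.12). Ldha, which turns pyruvate into lactate, was not called in any comparison: its log2 differences were -0.11 for beta-catenin against control (95% interval -0.22 to 0.01), 0.00 for ICAT against control (-0.11 to 0.12) and -0.11 for beta-catenin against ICAT (-0.23 to 0.01). Alternative settings called it in both comparisons of beta-catenin cells, 2 of 19 in each, with a trended robust prior among them.

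**Figure D2:**
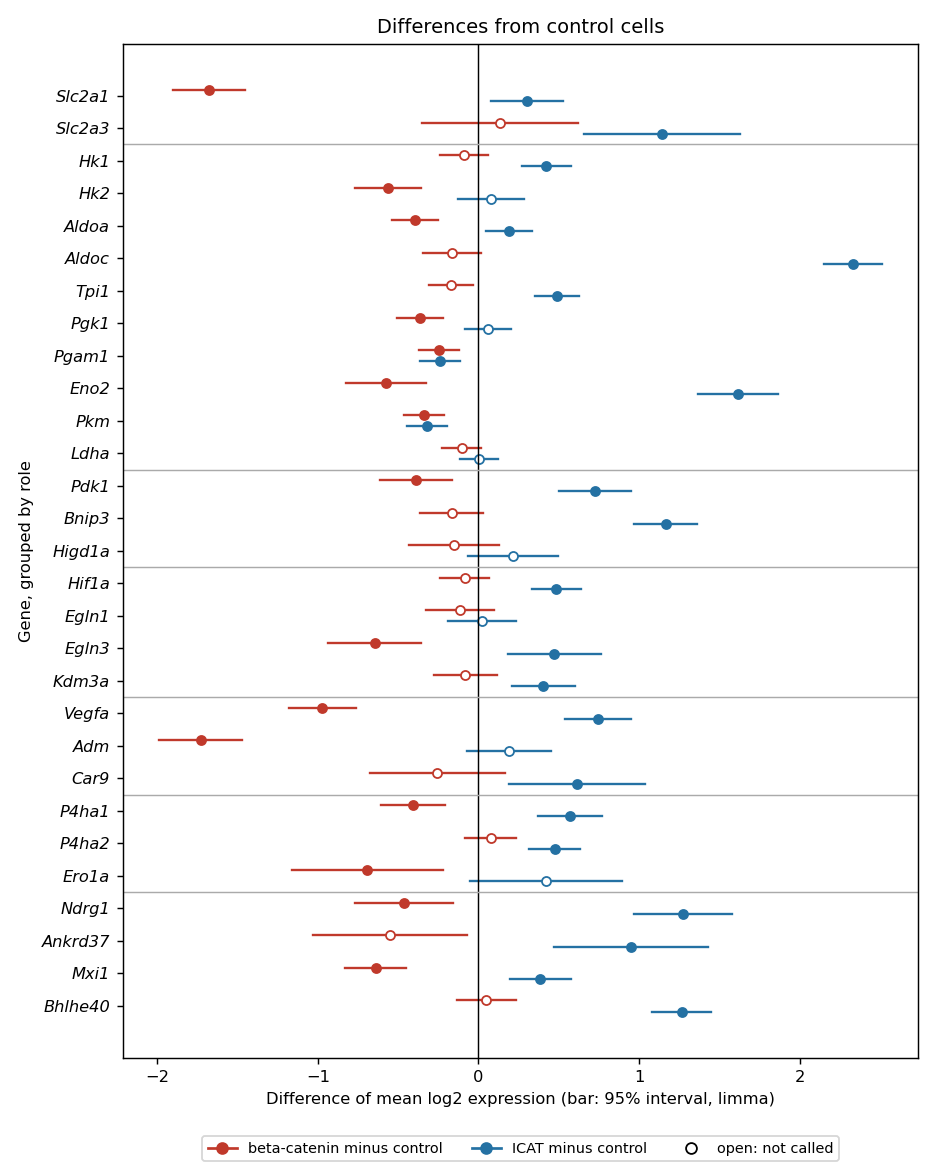
Points give each member's mean log2 expression minus that of control cells, for beta-catenin cells (red) and ICAT cells (blue), with 95% intervals from limma; open points were not called. Beta-catenin points lie mostly left of 0 and ICAT points mostly right of it, while Pgam1 and Pkm have both points left of 0.

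At the mitochondrion, Pdk1 encodes a kinase that shuts off pyruvate dehydrogenase, and Bnip3 encodes an outer membrane protein that promotes removal of mitochondria. Pdk1 had values of 9.83, 9.87 and 9.79 in beta-catenin cells, 10.75, 11.21 and 10.88 in ICAT cells, and 10.26, 10.24 and 10.16 in control cells. Control lay between the other groups without overlap. Against control cells, Pdk1 was 1.31-fold lower in beta-catenin cells (log2 difference -0.39, SE 0.10, adjusted p = 0.0109) and, in ICAT cells, 1.65-fold higher (log2 difference 0.73, adjusted p = 0.000203). Bnip3 measured 10.58, 10.71 and 10.53 in beta-catenin cells, 11.76, 12.13 and 11.92 in ICAT cells, and 10.80, 10.75 and 10.76 in control cells. The ICAT arrays were the highest, and the beta-catenin arrays fell just under the control arrays. Bnip3 was 2.24-fold higher in ICAT than in control cells (adjusted p = 3.3e-06), and its difference of -0.17 in beta-catenin cells was not called (95% interval -0.36 to 0.03). Higd1a, a mitochondrial protein gene induced by hypoxia, was 1.29-fold lower in beta-catenin than in ICAT cells (adjusted p = 0.0377), a call lost in 11 of the 19 alternative settings, including the omission of any single array other than ICAT replicate 1 (adjusted p up to 0.153). A second Higd1a probe set was called 1.80-fold higher in ICAT than in control cells (adjusted p = 4.13e-05) and 1.75-fold lower in beta-catenin than in ICAT cells (adjusted p = 4.52e-05), and the mean of all its probe sets was called higher in ICAT than in control cells (0.52 in place of 0.22). On the brightest probe set ICAT replicate 1, at 11.64, stood apart from replicates 2 and 3 at 12.22 and 12.21.

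Among the oxygen sensors and chromatin feedback genes, Hif1a itself had values of 11.37, 11.36 and 11.38 in beta-catenin cells, 12.01, 12.01 and 11.80 in ICAT cells, and 11.40, 11.50 and 11.46 in control cells. The ICAT arrays were above all others, and the beta-catenin arrays just below control. Hif1a was 1.40-fold higher in ICAT than in control cells (log2 difference 0.48, SE 0.07, adjusted p = 0.000242) and was not called between beta-catenin and control cells (-0.09, 95% interval -0.24 to 0.07). This is the transcript; the alpha subunit is controlled largely at the protein level, which the arrays do not read. Egln3 encodes a prolyl hydroxylase that HIF induces. It measured 8.98, 9.08 and 9.17 in beta-catenin cells, 9.82, 10.42 and 10.35 in ICAT cells, and 9.68, 9.75 and 9.74 in control cells. No group overlapped another, although ICAT replicate 1 came close to control. Egln3 was 1.57-fold lower in beta-catenin than in control cells (adjusted p = 0.00239). It was 1.39-fold higher in ICAT than in control cells (adjusted p = 0.0143), a call lost without ICAT replicate 2 or 3 (adjusted p up to 0.0646). The other Egln3 probe set, a dimmer one, was called 1.83-fold higher in ICAT than in control cells (adjusted p = 9.48e-05). For beta-catenin against control it was not called (log2 difference -0.16, adjusted p = 0.336). Kdm3a, a histone demethylase gene, was 1.32-fold higher in ICAT than in control cells (adjusted p = 0.00404). Egln1 was not called in any comparison, with intervals of -0.33 to 0.10 for beta-catenin against control, -0.19 to 0.24 for ICAT against control and -0.35 to 0.08 for beta-catenin against ICAT.

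The secreted and surface products covered vessel growth and acid handling. Vegfa, the vascular endothelial growth factor gene, had values of 7.49, 7.65 and 7.74 in beta-catenin cells, 9.20, 9.54 and 9.29 in ICAT cells, and 8.62, 8.61 and 8.57 in control cells. The groups were fully separate, with ICAT highest and beta-catenin lowest. Vegfa was 1.96-fold lower in beta-catenin than in control cells (log2 difference -0.97, SE 0.09, adjusted p = 9.65e-06) and 1.67-fold higher in ICAT than in control cells (log2 difference 0.74, adjusted p = 0.000102). Adm encodes adrenomedullin, a vasodilator peptide. It measured 6.46, 6.47 and 6.46 in beta-catenin cells, 8.06, 8.65 and 8.45 in ICAT cells, and 8.21, 8.19 and 8.18 in control cells. All beta-catenin arrays were far below the rest, and ICAT arrays fell on both sides of control. Adm was 3.32-fold lower in beta-catenin than in control cells (log2 difference -1.73, SE 0.12, adjusted p = 5.97e-07), the largest fall among the members. Between ICAT and control cells its difference of 0.19 was not called (adjusted p = 0.25), and it was called without ICAT replicate 1 (adjusted p = 0.00275). Car9, the carbonic anhydrase that acidifies the surroundings of hypoxic tumour cells, was dim: 5.43, 5.06 and 4.99 in beta-catenin cells, 5.53, 6.35 and 6.22 in ICAT cells, and 5.59, 5.27 and 5.39 in control cells. ICAT replicate 1 lay within the control arrays while ICAT replicates 2 and 3 lay above them. Car9 was 1.53-fold higher in ICAT than in control cells (adjusted p = 0.0258), but not without control replicate 2 or 3 or without ICAT replicate 2 or 3 (adjusted p up to 0.115).

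Collagen prolyl hydroxylases (P4ha1, P4ha2) and the disulfide-forming oxidase Ero1a, listed by its older symbol Ero1l, act in the endoplasmic reticulum. P4ha1 had values of 9.14, 9.14 and 9.16 in beta-catenin cells, 9.89, 10.19 and 10.29 in ICAT cells, and 9.54, 9.55 and 9.58 in control cells. The groups stood apart, with control in the middle. P4ha1 was 1.33-fold lower in beta-catenin than in control cells (adjusted p = 0.00424) and 1.49-fold higher in ICAT than in control cells (adjusted p = 0.000462). P4ha2 was 1.39-fold higher in ICAT than in control cells (adjusted p = 0.000338), and its beta-catenin arrays were all just above control without being called (log2 difference 0.08, 95% interval -0.08 to 0.23). Ero1a measured 8.32, 8.56 and 8.52 in beta-catenin cells, 8.91, 9.96 and 9.87 in ICAT cells, and 9.21, 9.13 and 9.14 in control cells. Beta-catenin arrays were the lowest, and ICAT replicate 1 was below control while the other ICAT arrays were above it. Ero1a was 1.62-fold lower in beta-catenin than in control cells (log2 difference -0.69, SE 0.21, adjusted p = 0.0261), a call lost in 6 alternative settings, including the omission of any control array or of beta-catenin replicate 1 or 3 (adjusted p up to 0.0839). In ICAT cells the difference of 0.42 was not called (adjusted p = 0.159), and without ICAT replicate 1 it was 0.76 and called (adjusted p = 5.88e-05). A second Ero1a probe set was called against control in ICAT cells (0.80, adjusted p = 0.0425) and in beta-catenin cells (-0.93, adjusted p = 0.0214). The remaining one was called in neither (0.61, adjusted p = 0.127, and -0.65, adjusted p = 0.103).

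The remaining targets were Ndrg1, a stress-induced cytoplasmic protein gene, Ankrd37, an ankyrin repeat gene, and the transcriptional repressors Mxi1, which opposes MYC, and Bhlhe40. Ndrg1 had values of 9.56, 9.72 and 9.71 in beta-catenin cells, 11.04, 11.74 and 11.43 in ICAT cells, and 10.21, 10.14 and 10.05 in control cells. The 3 groups were apart from each other. Ndrg1 was 2.42-fold higher in ICAT than in control cells (log2 difference 1.27, SE 0.14, adjusted p = 3.84e-05). It was 1.38-fold lower in beta-catenin cells (adjusted p = 0.0224), a call lost without control replicate 1 or 2 or beta-catenin replicate 1 (adjusted p up to 0.0792). Bhlhe40 measured 7.89, 8.22 and 8.16 in beta-catenin cells, 9.28, 9.34 and 9.30 in ICAT cells, and 8.04, 7.99 and 8.10 in control cells. Only the ICAT arrays stood apart. Bhlhe40 was 2.40-fold higher in ICAT than in control cells (log2 difference 1.27, adjusted p = 1.35e-06), and in beta-catenin cells the difference was 0.05 (95% interval -0.13 to 0.23).

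Mxi1 gave 9.40, 9.38 and 9.49 in beta-catenin cells, 10.28, 10.64 and 10.42 in ICAT cells, and 10.06, 10.03 and 10.09 in control cells. Again control lay between the others without overlap. Mxi1 was 1.56-fold lower in beta-catenin than in control cells (adjusted p = 0.000128) and 1.31-fold higher in ICAT than in control cells (adjusted p = 0.00426). Ankrd37 had 6.47, 6.64 and 6.75 in beta-catenin cells, 7.45, 8.54 and 8.39 in ICAT cells, and 7.13, 7.22 and 7.17 in control cells. The groups did not overlap, and the ICAT arrays had the widest spread of any member (SD 0.59). Ankrd37 was 1.93-fold higher in ICAT than in control cells (adjusted p = 0.00493), and its log2 difference of -0.55 in beta-catenin cells was not called (adjusted p = 0.0729), although 4 of the 19 alternative settings called it, among them leaving out ICAT replicate 1.

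**Figure D3:**
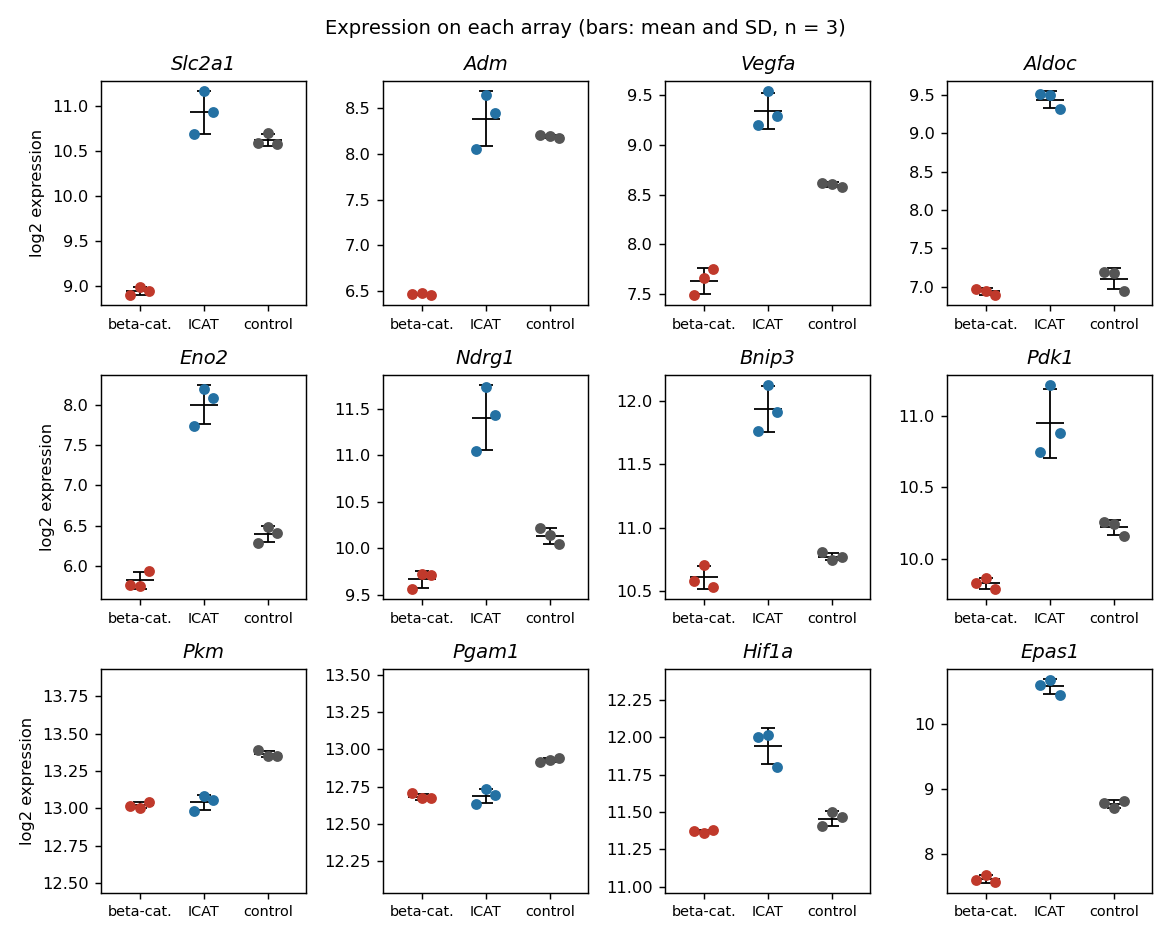
Each panel gives 1 gene's log2 expression on every array for beta-catenin (red), ICAT (blue) and control (grey) cells, with bars for the mean and SD of 3 arrays; each vertical axis has its own range. Control points lie between the other groups for Vegfa, Eno2, Ndrg1, Pdk1 and Epas1, and above both for Pkm and Pgam1.

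No member was higher in beta-catenin than in control cells in limma, and 0 were at an unadjusted p under 0.05 either, while 17 were lower by that measure. The share of all genes at an unadjusted p under 0.05 was not computed. All 3 beta-catenin arrays lay below all 3 control arrays for 22 members and above them for 1, P4ha2, against 26.3% and 27.8% of all genes tested. The median difference was -0.34, with a range of -1.73 to 0.13. The ICAT arrays were all above control for 18 members and all below for 2, against 22.9% and 23.3% of all genes, and the median difference between ICAT and control cells was 0.47 in a range of -0.32 to 2.33. For beta-catenin against ICAT, 25 members had all beta-catenin arrays below all ICAT arrays and 0 had them above, against 22.4% and 25.2% of all genes. At least 2-fold lower levels in beta-catenin than in ICAT cells were found for 14 members, and for 2.48% of all genes tested. Over the 19 alternative settings the number lower was 13 to 19 for beta-catenin against control and 23 to 26 for beta-catenin against ICAT, and the number higher was 16 to 23 for ICAT against control.

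By their calls against control, 9 members were lower in beta-catenin cells and higher in ICAT cells: Aldoa, Egln3, Eno2, Mxi1, Ndrg1, P4ha1, Pdk1, Slc2a1 and Vegfa. A further 4, Adm, Ero1a, Hk2 and Pgk1, were called only for beta-catenin cells, and 11 only for ICAT cells, among them Aldoc, Bnip3, Bhlhe40 and Hif1a. Both comparisons use the same control arrays, so these patterns are not independent. The share of all genes tested with each pattern was not computed, so these counts have no background beside them. In the direct comparison all 9, all 4 and all 11 of these were lower in beta-catenin than in ICAT cells. The direct difference equals that of beta-catenin against control minus that of ICAT against control. For the 9 its direction was therefore fixed by their calls, and the others were chosen on the same arrays. It adds no separate evidence. The 19 members other than glycolytic enzymes had medians of -0.39 for beta-catenin against control, 0.48 for ICAT against control and -1.11 for beta-catenin against ICAT, each farther from 0 than the enzymes' medians, a difference that was not tested.

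The ICAT arrays were not alike in this programme. Replicate 1 was the lowest of the 3 ICAT arrays for 24 of the 29 members (82.8%), against 31.3% of all genes tested. Replicate 2 was the highest for 22 members, against 26.6% of all genes tested. The median of the members relative to the control mean was 0.28, 0.58 and 0.48 on ICAT replicates 1, 2 and 3, and -0.34, -0.36 and -0.35 on the beta-catenin arrays. On the same arrays the median of all genes tested stayed between -0.03 and 0.02. The members' median SD was 0.18 in ICAT cells, against 0.05 in beta-catenin cells and 0.04 in control cells, and the median SD over all genes was 0.12, 0.07 and 0.06. Without ICAT replicate 1, 23 members were called higher in ICAT than in control cells, 18 lower in beta-catenin than in control cells and 26 lower in beta-catenin than in ICAT cells. Replicate 1 was singled out by the values of these same members, so these counts add no separate evidence. The share of all genes called without that array was not computed. Aldoc, Slc2a3 and Kdm3a were instead highest on ICAT replicate 1 (9.51, 7.58 and 10.21).

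**Figure D4:**
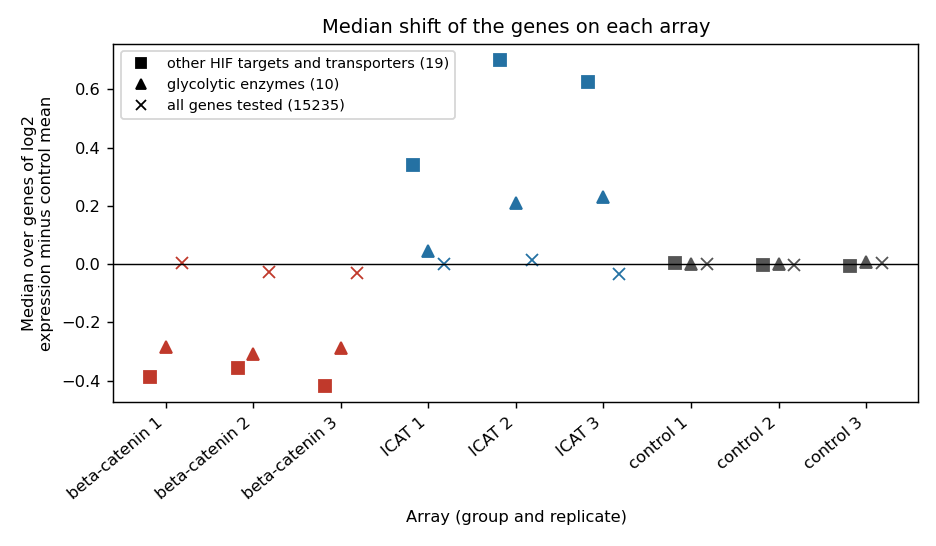
For each array, symbols give the median over genes of log2 expression minus the control mean, for the 19 other targets (squares), the 10 glycolytic enzymes (triangles) and all 15235 genes tested (crosses). The crosses stay near 0, the other targets reach 0.34, 0.70 and 0.62 on the ICAT arrays, and -0.39, -0.36 and -0.42 on the beta-catenin arrays.

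Of the 29 members tested, 17 were read by more than 1 probe set, which gave a check within the array from a separate fit of all probe sets. The 29 genes had 60 probe sets past the filter, of which 33 were lower and 0 higher in beta-catenin than in control cells, 36 higher and 2 lower in ICAT than in control cells, and 52 lower and 0 higher in beta-catenin than in ICAT cells. These 60 include the 29 already used, and the share of all probe sets called was not computed. Of the 31 others, 28, 28 and 29 had the sign of the one used for their gene, in the same order. No probe set was called in the opposite direction to the one used for its gene. In beta-catenin against ICAT cells and in ICAT against control cells, the only called gene with probe sets of the other sign was Hif1a. These were its 2 dimmest, and neither was called. For ICAT against control they gave -0.16 (adjusted p = 0.285) and -0.12 (adjusted p = 0.351). For Egln1, not called by its brightest probe set, the other one was lower in beta-catenin than in control cells (log2 difference -0.51, adjusted p = 0.0079) and than in ICAT cells (-0.49, adjusted p = 0.00872). The second probe set of Vegfa was lower in beta-catenin than in control cells (-0.57, adjusted p = 0.000168) and was not called between ICAT and control cells (0.14, adjusted p = 0.249). That of Mxi1 was also lower in beta-catenin than in control cells (-0.47, adjusted p = 0.0023) and not called between ICAT and control cells (0.10, adjusted p = 0.513). The second Hk1 probe set was not called in any comparison (ICAT minus control 0.11, adjusted p = 0.623). Aldoc rested on 1 probe set, since its other one did not reach 5 on any array. Averaging all probe sets of a gene left each of these calls in place but lowered some values by over 1.5 times: ICAT minus control was 1.19 in place of 2.33 for Aldoc, 0.15 in place of 0.48 for Hif1a, 0.44 in place of 0.74 for Vegfa, 0.27 in place of 0.42 for Hk1 and 0.24 in place of 0.39 for Mxi1. Under the same averaging, beta-catenin minus control was -0.40 in place of -0.65 for Egln3 and -0.25 in place of -0.39 for Pdk1. Beta-catenin minus ICAT was -1.28 in place of -2.499 for Aldoc and -0.19 in place of -0.57 for Hif1a.

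**Figure D5:**
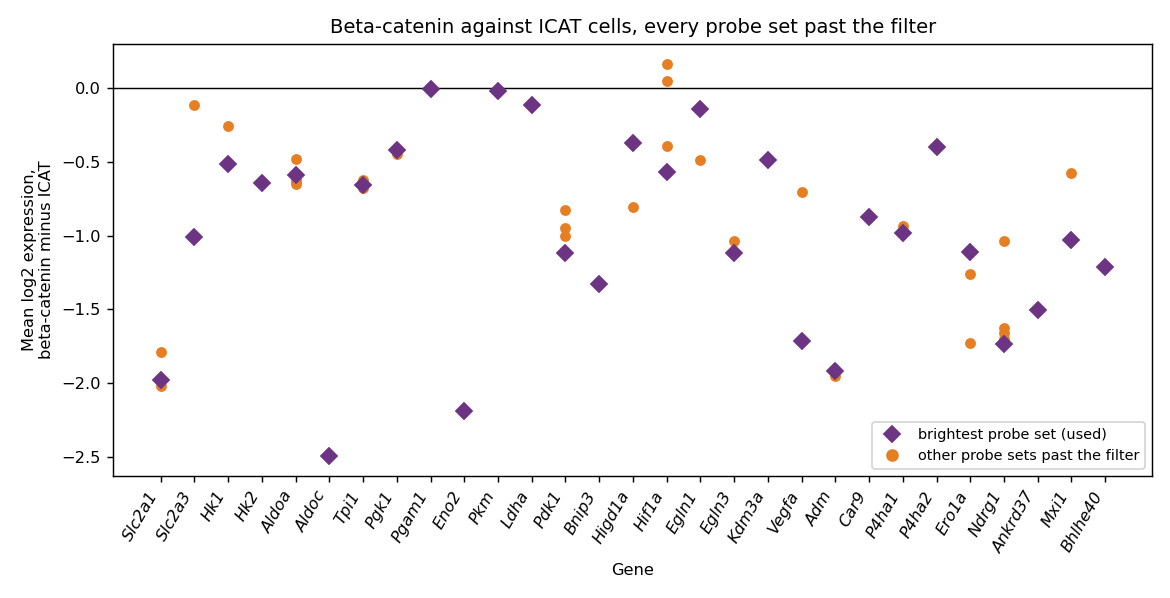
The vertical axis gives mean log2 expression in beta-catenin minus ICAT cells for every probe set past the filter, with the one used as a diamond and the others as circles. Nearly all lie below 0; the 2 circles above 0 are probe sets of Hif1a.

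The rest of the pathway was taken from lists of 52 further genes, of which 46 were tested. Over these 46, 10 were higher and 13 lower in beta-catenin than in control cells, 17 higher and 7 lower in ICAT than in control cells, and 11 higher and 18 lower in beta-catenin than in ICAT cells. The shares of all genes tested, higher and lower, were 19.6% and 15.4%, 18.7% and 18.5%, and 22.5% and 17.9% in these comparisons; the 10 higher, the 7 lower and the 11 higher of 46 lie near them. The median log2 differences over the 46 were -0.06, 0.07 and -0.09 in the same order. Among 9 regulators of HIF, 3 were higher and 1 lower in beta-catenin cells, and 4 were higher and 1 lower in ICAT cells, each against control, so the single lower genes are no more than the shares over all genes.

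Epas1, the gene of HIF-2 alpha, had the largest difference between beta-catenin and ICAT cells of these regulators. Its values were 7.61, 7.69 and 7.58 in beta-catenin cells, 10.59, 10.68 and 10.45 in ICAT cells, and 8.78, 8.71 and 8.82 in control cells. The groups were widely separated in the order seen for Vegfa. Epas1 was 2.21-fold lower in beta-catenin than in control cells (log2 difference -1.14, SE 0.07, adjusted p = 3.34e-07) and 3.48-fold higher in ICAT than in control cells (log2 difference 1.80, SE 0.07, adjusted p = 5.35e-08), and 7.69-fold lower in beta-catenin than in ICAT cells (adjusted p = 1.15e-09). Its second, dimmer probe set was also lower in beta-catenin than in control cells (-0.64) but showed 0.02 between ICAT and control cells (adjusted p = 0.899), and the mean of both gave a called 0.91. Arnt2, which encodes a relative of the HIF beta subunit, was higher in both transfected groups: 8.70, 8.69 and 8.71 in beta-catenin cells, 8.22, 7.50 and 7.68 in ICAT cells, and 6.24, 6.32 and 6.16 in control cells. All arrays of both groups lay above control, and beta-catenin above ICAT. Arnt2 was 5.51-fold higher in beta-catenin than in control cells (adjusted p = 1.75e-07) and 2.95-fold higher in ICAT than in control cells (adjusted p = 1.15e-05), on 1 probe set, while its other probe set past the filter was not called and the mean over all of them gave log2 differences of 0.94 and 0.55. Cited2, whose product competes with HIF for the co-activator p300, was 1.63-fold higher in beta-catenin than in control cells (adjusted p = 0.000179) and 1.88-fold higher in beta-catenin than in ICAT cells (adjusted p = 2.71e-05). Hif1an, the asparagine hydroxylase that blocks the alpha subunit, was 1.29-fold lower in ICAT than in control cells (adjusted p = 0.00588), or -0.20 on the log2 scale in place of -0.37 with the mean of its probe sets (adjusted p = 0.0474), and Vhl was 1.40-fold higher in ICAT than in control cells (adjusted p = 0.00107).

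Among 21 other HIF targets tested, 4 were higher and 7 lower in beta-catenin than in control cells. Against control, 9 were higher and 3 lower in ICAT cells. In beta-catenin against ICAT cells, 3 were higher and 12 lower. The shares of all genes tested, higher and lower, were 19.6% and 15.4%, 18.7% and 18.5%, and 22.5% and 17.9% in these comparisons. The 4 higher, the 3 lower and the 3 higher of 21 are no more than these shares. Ddit4, an inhibitor of mTOR signalling, had log2 values of 9.09, 9.11 and 8.99 in beta-catenin cells, 10.18, 10.70 and 10.79 in ICAT cells, and 10.11, 10.15 and 10.15 in control cells. Its groups did not overlap. Ddit4 was 2.11-fold lower in beta-catenin than in control cells (adjusted p = 5.06e-05) and 1.34-fold higher in ICAT than in control cells (adjusted p = 0.0239), the second call being lost without any 1 control array or without ICAT replicate 2 or 3 (adjusted p up to 0.0973). Lox, the collagen cross-linking oxidase, was instead 2.81-fold higher in beta-catenin than in control cells (adjusted p = 1.85e-06) and 3.76-fold higher in ICAT than in control cells (adjusted p = 8.47e-07). Pfkfb3, which makes an activator of phosphofructokinase, was 2.83-fold higher in beta-catenin than in control cells (adjusted p = 3.54e-06) and 1.48-fold higher in ICAT than in control cells (adjusted p = 0.00456). Tfrc, the transferrin receptor, was 1.88-fold lower in ICAT than in control cells (adjusted p = 7.16e-06).

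Of 16 other genes of glycolysis and pyruvate use tested, 3 were higher and 5 lower in beta-catenin than in control cells, 4 higher and 3 lower in ICAT than in control cells, and 4 higher and 3 lower in beta-catenin than in ICAT cells. Over all genes tested the shares higher and lower in these comparisons were 19.6% and 15.4%, 18.7% and 18.5%, and 22.5% and 17.9%, and most of these counts of 16 lie near them. Pfkp, the platelet-type phosphofructokinase, was 3.42-fold higher in beta-catenin than in control cells (adjusted p = 1.55e-08) and 2.45-fold higher in ICAT than in control cells (adjusted p = 5.65e-07). Eno3, the muscle-type enolase, was 3.15-fold lower in beta-catenin than in control cells (adjusted p = 2.14e-08) and 1.34-fold lower in ICAT than in control cells (adjusted p = 0.000762).

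More markers of epithelium and of fibroblasts were called higher in ICAT than in beta-catenin cells, each against control. Of 4 epithelial markers tested, 3 were higher in ICAT than in control cells (18.7% of all genes tested) and 0 in beta-catenin than in control cells (19.6%). Over all 6 listed epithelial markers the summed log2 values were 34.1 to 34.7 in beta-catenin cells, 36.4 to 38.2 in ICAT cells and 34.7 to 35.0 in control cells. ICAT replicate 1 was the lowest ICAT array for 3 of the 4 epithelial markers tested and for 3 of the 9 fibroblast markers tested, and the highest for 5 of those 9. Cdh1 (E-cadherin), which defines epithelium, averaged 3.54, 3.48 and 3.48 in beta-catenin, ICAT and control cells, and no array reached the filter for it, while Krt7 reached it on 2 arrays only; neither was tested. Of 9 fibroblast markers tested, 3 were higher and 2 lower in beta-catenin than in control cells (19.6% and 15.4% of all genes), and 7 were higher and 0 lower in ICAT than in control cells (18.7% and 18.5%). Over all 10 listed fibroblast markers the summed log2 values were 80.3 to 82.3 in beta-catenin cells, 87.5 to 90.3 in ICAT cells and 78.4 to 79.0 in control cells. Some fibroblast markers were not highest in ICAT cells. Pdgfra averaged 10.62, 10.60 and 8.58 in beta-catenin, ICAT and control cells, and Acta2 averaged 9.20, 8.06 and 7.90. The immune markers Ptprc and Itgam were below the filter on every array, while Cd3e, Adgre1, Cd68 and Lyz2 reached it on all 9. The part of these markers in the results was not tested. Ctnnb1, the beta-catenin gene, was 1.15-fold higher in beta-catenin than in control cells (adjusted p = 0.0353) and 1.14-fold higher in ICAT than in control cells (adjusted p = 0.0364), and both calls were lost without any 1 control array, among other settings (adjusted p up to 0.11). Ctnnbip1 was not called in either group, but a 3′ probe set need not read a transgene and checks neither label.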

How the data were processed

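The deposited table holds log2 values for 45037 probe sets on 9 Affymetrix arrays; per the submitters' processing notes the authors used RMA in the affy package, with no version given in the sources used here. RMA can understate the folds of dim genes. The array annotation gave 34945 probe sets 1 gene symbol, 932 several and 9160 none; only the first were used. Symbols were updated through RefSeq.

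The members, lists, filter and tests were chosen with earlier results of these data known. limma 3.58.1 in R 4.3.3 fitted 1 mean per group to all 9 arrays (6 residual and 5.03 prior degrees of freedom). Two-sided moderated tests were adjusted by Benjamini-Hochberg over 15235 genes within each comparison, and called at an adjusted p under 0.05. The script was tested on simulated data. Every member may be named; those called with a log2 difference of at least 0.58 have all arrays given. Further pathway genes were named after their values were seen. The number of arrays limits the precision. Lists of cell markers for immune, endothelial, acinar and endocrine cells were also read: against control, 0 of 4, 0 of 2, 1 of 2 and 0 of 1 tested were higher in ICAT cells. In beta-catenin cells 0, 0, 1 and 0 were higher than in control cells, and 1 immune marker was lower. The acinar marker Cela1 averaged 9.35, 8.54 and 8.14 in beta-catenin, ICAT and control cells. Alternatives covered the filter, probe set choice, normalization, model, replicate block and leaving out each array.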

Additional observations from a re-analysis of the deposited data

How the results depend on the processing

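The 6 counts of members called higher or lower stayed within 1.5 times of their values under all 19 alternative settings, and no called difference of a member turned its direction. Leaving out 1 array in turn gave 13 to 18 members lower in beta-catenin than in control cells, 16 to 23 higher and 2 lower in ICAT than in control cells, and 24 to 26 lower in beta-catenin than in ICAT cells. With a filter of 7 on 3 arrays, which leaves 27 members, the counts were 16, 18 higher and 23. Eno2 passed this filter only through its ICAT arrays, where it was highest, so its calls there are no separate evidence. The share of all genes called under this filter was not computed. Of the called members, 13 of 15 were called in each setting that tested them for beta-catenin against control, 18 of 22 for ICAT against control and 24 of 25 for beta-catenin against ICAT. Slc2a3 and Car9 were not tested under that filter, nor Slc2a3 with the mean of its probe sets, which falls below the filter. The calls lost were of Ero1a and Ndrg1, of Aldoa, Car9, Egln3 and Slc2a1, and of Higd1a. Same-numbered replicates share only a number: their deviations from the group means correlated at -0.13 to 0.41 over genes. With the replicate number as a block, 16 members were lower in beta-catenin than in control cells, 20 higher and 2 lower in ICAT than in control cells, and 25 lower in beta-catenin than in ICAT cells. The same settings were applied to the further pathway genes after seeing the data: Epas1 kept its 3 calls in all 19, with log2 differences of 0.91 to 1.86 for ICAT against control. Rora, not called by its brightest probe set (-0.07), turned its direction with the mean of its probe sets, to a called 0.20 for beta-catenin against control; the cause was not tested. That mean also lowered the log2 difference of Pfkp to 0.76 (beta-catenin against control) and 0.49 (ICAT against control), that of Pfkfb3 to 0.84 (beta-catenin against control) and that of Hif1an to -0.20 (ICAT against control). The 3 arrays per group limit the precision, and the values of Car9 lie near the filter.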
